A study of Mus musculus with 104 samples.

Results

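Muscle stem cells of aged mice kept under calorie restriction (CR) were set against those of adult mice on a control diet. Arrays were chosen by their titles alone: 26 titled as aged animals on the restricted diet against 22 titled as adult animals on the control diet. The rest of the series is 24 aged control and 32 adult CR arrays. Both groups came from Per1-Venus BAC transgenic mice, which carry a fluorescent reporter of a clock gene, on a C57B6/J background. Aged CR mice were 55 to 69 weeks old at the start and received 30% less food than freely fed mice for 25 weeks, after 3 weeks in which food was cut by 10% a week. Adult control mice were 19 to 29 weeks old at the start and fed without limit for the same time. Of the other 2 groups, aged control mice were 55 to 69 weeks old at the start and fed without restriction. Adult CR mice were 19 to 29 weeks old at the start and had the same restriction as aged CR mice. Cells were collected at 6 times of day (Zeitgeber time, ZT0 to ZT20 in steps of 4 h), with 5, 4, 4, 5, 4 and 4 aged CR arrays and 4, 5, 4, 4, 4 and 1 adult control arrays in time order. The age field of every adult control array reads 83 to 97 weeks, as for the aged mice, which goes against the titles and the design text. That of the adult CR arrays reads 47 to 57 weeks. The titles were followed. The titles call the arrays biological replicates. The sorting gate and the sex of the mice are not given in the sources used here.

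Muscle stem cells, or satellite cells, lie beneath the sheath of each muscle fibre and divide to repair it after injury. As in other cells, a molecular clock runs in them: the activators ARNTL and CLOCK switch on genes of the PER, CRY and NR1D families and the output factors DBP, TEF and HLF, and these products act back on the activators. Calorie restriction and the daily time of feeding are both known to act on peripheral clocks. The comparison asks how far the diet leaves old cells from adult control cells, in the mean level of each gene over the day and in its daily rhythm. The groups differ in age and in diet at once, so a difference between them belongs to neither alone.

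Values were deposited as RMA values on a log2 scale, so a difference of 1 is a doubling, and 11853 genes were tested. Array to array correlations had a median of 0.960 within aged CR, 0.961 within adult control and 0.959 between the groups. Known markers of muscle stem cells were bright in both: Gpx3 averaged 12.41 in aged CR and 12.43 in adult control, Fgfr4, a growth factor receptor, 11.05 and 11.14, and the myogenic factors Myod1 10.58 and 10.50 and Pax7 9.91 and 9.88 (log2 levels). Markers of other cells were also bright: Myh11 of smooth muscle averaged 11.40 in aged CR and 10.74 in adult control, Gsn of fibroadipogenic progenitors 10.84 and 10.95, and Pmp22 of Schwann cells 10.85 and 10.75. In such bulk RNA, fewer cells of a type and less RNA per cell cannot be told apart.

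In mean level the groups lay close together. The level of a gene is its mean over the day from a cosine curve fitted to each group, and limma called 470 genes (3.97% of those tested, Benjamini-Hochberg adjusted p under 5%). In aged CR 297 were higher (2.51%) and 173 lower (1.46%), and after added quantile normalization 261 and 239. Without the ZT20 arrays, where adult control has only 1, the count was 312. Of the called genes 33 differed by more than 1.5-fold and 1 by more than 2-fold, and no gene's arrays were separated completely between the groups. The median absolute difference was 0.34 among called genes and 0.07 among all. For 11249 genes (94.9%) the 95% interval of the difference lay inside -0.5 to 0.5, or within 1.41-fold either way, and 226 of these were called. Another 360 genes were not called but had intervals that reached beyond that bound, so for them a difference of such size was not excluded by the data. With a bound of 0.25 (1.19-fold), 6783 genes (57.2%) lay inside.

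Thy1, a surface glycoprotein of fibroblasts, neurons and T cells, differed most. Its values ran from 5.84 through a median of 6.71 to 8.52 in aged CR, against 6.75, 8.02 and 9.27 in adult control. Of the 26 aged CR arrays 15 lay below the lowest adult control array, and none lay above the highest. The difference was -1.46 ± 0.16 (SE), a 2.75-fold lower level (limma adjusted p = 4.5e-11). Aged CR was lower at all 6 times, for example 6.30 ± 0.36 at ZT12 against 8.09 ± 0.13 in adult control (SD, n = 5 and n = 4). The other 2 groups of the series lay between, with day means of 7.57 in aged control and 7.34 in adult CR, beside 6.77 in aged CR and 8.23 in adult control. The fitted peak lay at 18.35 h in each group, with a rhythm that passed the test in aged CR (limma adjusted p = 0.0064) and did not in adult control (limma adjusted p = 0.054).

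The other genes that fell furthest included secreted and signalling molecules. Gal, which encodes the neuropeptide galanin, spanned 9.01 to 10.93 with a median of 10.40 in aged CR and 10.36 to 11.85 with a median of 11.09 in adult control. Its difference was -0.83 ± 0.11 (limma adjusted p = 1.1e-07), and all 26 aged CR arrays lay below the adult control median. Cxcl13, a chemokine that attracts B cells, fell by 0.87 ± 0.16 on the log2 scale (adjusted p = 0.00015 by limma), with 9 arrays below the lowest adult control array. Dio2, the enzyme that activates thyroid hormone inside cells, spanned 4.87 to 5.85 with a median of 5.42 in aged CR, against 5.26 to 7.40 with a median of 6.22 in adult control. It fell by 0.78 ± 0.11 (limma adjusted p = 1.6e-06), and no aged CR array reached the adult control median. The matrix protein gene Olfml2a (-0.79 ± 0.14), Ret, a receptor tyrosine kinase for GDNF family ligands (-0.70 ± 0.15), the peptidase gene Cpq (-0.61 ± 0.12) and the DNA repair gene Apex2 (-0.60 ± 0.13) completed the 8 widest falls, with limma adjusted p between 0.00013 and 0.0014. A dimmer probe set of Apex2 had a difference of only -0.07 ± 0.13.

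Genes of contractile cells stood among those that rose furthest. Tpm2, a tropomyosin, spanned 8.55 to 10.75 with a median of 9.64 in aged CR and 7.22 to 10.13 with a median of 8.88 in adult control. Its difference was 0.90 ± 0.18, or 1.87-fold (limma adjusted p = 0.00051), and 24 of 26 aged CR arrays lay above the adult control median. Mylk, the kinase that starts smooth muscle contraction, rose by 0.74 ± 0.13 (limma adjusted p = 0.00023). The remaining 6 widest rises were Ptp4a3 (0.82 ± 0.14), the adenylyl cyclase gene Adcy5 (0.81 ± 0.21), Pcp4l1 (0.79 ± 0.15), the matrix protein gene Tinagl1 (0.78 ± 0.13), Rtl3 (0.74 ± 0.15) and Tesc (0.73 ± 0.14), with limma adjusted p between 9.4e-05 and 0.013. All 26 aged CR arrays lay above the adult control median for Pcp4l1 and Tinagl1. A dimmer probe set of Ptp4a3 had a difference of only 0.04 ± 0.06. For each of these 8 genes the sign was the same at all 6 times, and the ranges of the groups overlapped.

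**Figure D1:**
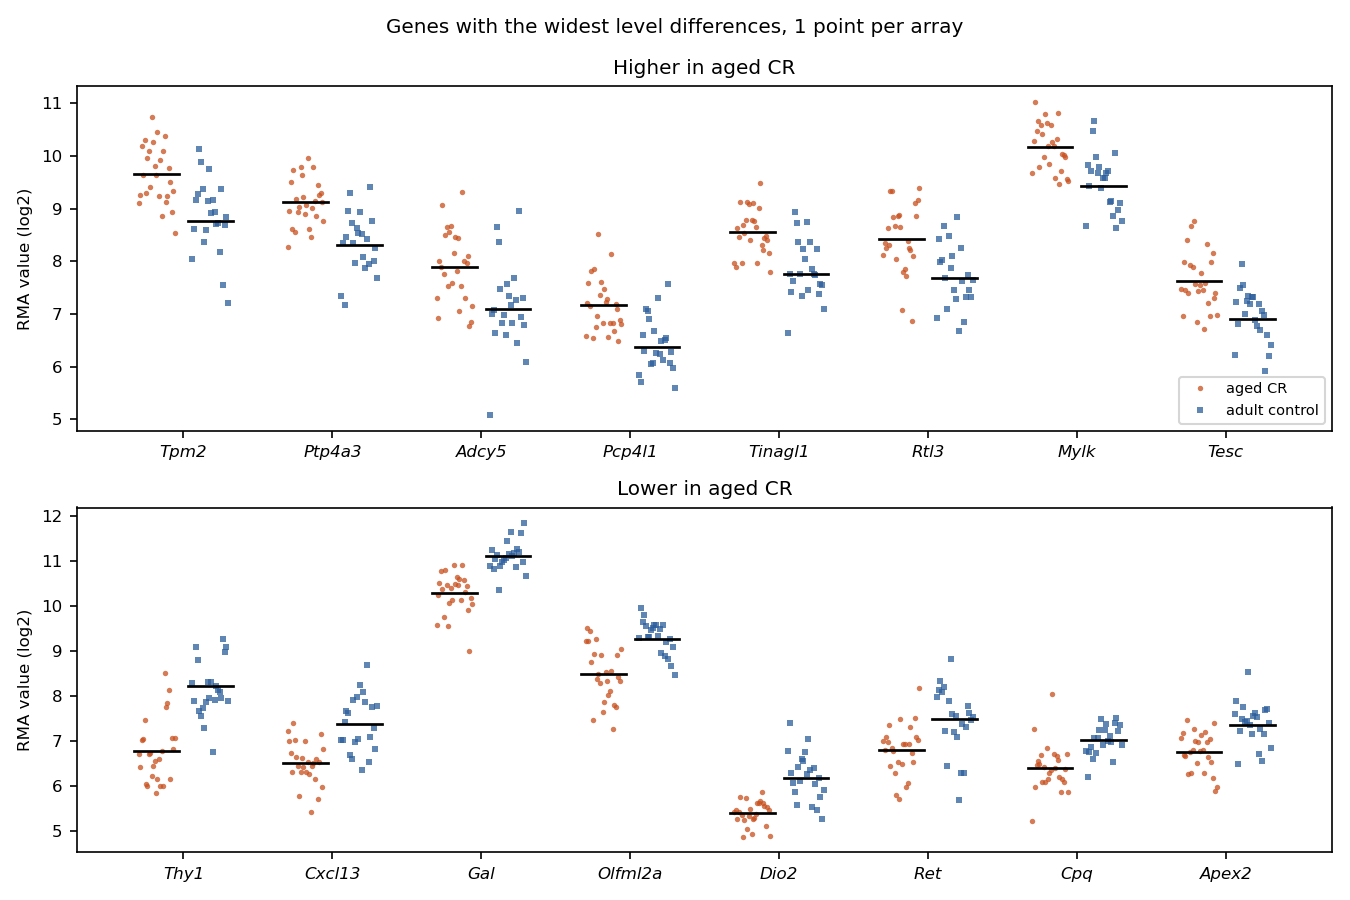
Level of the 8 genes with the widest rise (top) and the 8 with the widest fall (bottom) in aged CR; each point is 1 array, with 26 aged CR arrays left and 22 adult control arrays right for each gene, on the log2 scale, and black bars are the fitted day means. The groups overlap for every gene; for Thy1, 15 aged CR arrays lie below the lowest adult control array.

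Some markers of smooth muscle rose and others did not. Of 7 measured pericyte and smooth muscle genes 3 rose and none fell (median 0.03), against 2.51% of all genes that rose. They were Mylk, the smooth muscle actin Acta2 (0.58 ± 0.10, limma adjusted p = 4.1e-05) and the smooth muscle myosin Myh11 (0.66 ± 0.14, limma adjusted p = 0.0014). The pericyte genes Rgs5 (-0.09 ± 0.15), Pdgfrb (-0.03 ± 0.11) and Kcnj8 (-0.29 ± 0.16) and the smooth muscle gene Cnn1 (0.03 ± 0.12) did not pass. The mean of the 7 genes spanned 8.41 to 9.57 in aged CR and 8.07 to 9.45 in adult control. With this mean as a covariate limma called 319 genes, 183 higher and 136 lower, the difference of Tpm2 was 0.58 (limma adjusted p = 0.0083) and that of Ptp4a3 0.55 (limma adjusted p = 0.0006), both still called, and the call of Adcy5 was lost at 0.50 (limma adjusted p = 0.14). The part of smooth muscle RNA in the other rises was not tested further.

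Some chaperone genes were lower in aged CR. Of 11 measured heat shock genes 4 fell, none rose and 7 were not called (median difference -0.15, against 0.01 over all genes, of which 1.46% fell). Bag3, a co-chaperone of HSP70, fell by 0.46 ± 0.10 (limma adjusted p = 0.0012), Hsph1 by 0.37 ± 0.10, the small heat shock gene Hspb1 by 0.27 ± 0.07 and Dnajb1 by 0.26 ± 0.08. Bag3 spanned 7.48 to 8.32 with a median of 8.02 in aged CR and 7.76 to 8.84 with a median of 8.31 in adult control. The call of Dnajb1 is weak (limma adjusted p = 0.049) and was lost in 33 of 48 omissions of a single array. Hsph1 lost its call with the Schwann cell mean (limma adjusted p = 0.058) or the smooth muscle mean (limma adjusted p = 0.072) as a covariate. Hspa8, the constant member of the HSP70 family, differed by -0.02 ± 0.03, and Dnaja1 by 0.11 ± 0.07, neither called. The highest difference in the list was 0.34, also not called. Hspb7, a small heat shock gene outside the list, went the other way at ZT8. It was 3.82-fold higher in aged CR at that time (limma adjusted p = 0.00057).

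The unfolded protein response, which raises folding and disposal capacity in the endoplasmic reticulum, also had members that fell. Of 20 measured genes 7 fell, none rose and 13 were not called (median -0.09), against 1.46% of all genes that fell. Dnajc3, a co-chaperone that also inhibits the kinase PERK, spanned 7.51 to 8.82 with a median of 8.07 in aged CR and 8.19 to 9.05 with a median of 8.59 in adult control. It fell by 0.47 ± 0.08 (limma adjusted p = 0.00016). Herpud1, part of the disposal machinery, fell by 0.28 ± 0.05 (limma adjusted p = 0.00035), the secreted factor gene Manf by 0.30 ± 0.07, the HSP90 paralog Hsp90b1 by 0.18 ± 0.04, the disulphide isomerases Pdia6 by 0.26 ± 0.08 and Pdia4 by 0.23 ± 0.07, and the pseudokinase gene Trib3 by 0.22 ± 0.06. Hspa5, the main chaperone of this compartment, had -0.15 ± 0.06 (limma adjusted p = 0.18) and the regulator Xbp1 had -0.27 ± 0.09 (limma adjusted p = 0.058). The transcription factor genes Atf4 (0.11 ± 0.04) and Ddit3 (0.10 ± 0.06) were not called.

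Many promoters of this response carry the ER stress element, CCAAT and CCACG 9 bases apart, read by ATF6 and NF-Y. Promoter windows of 250 bases before to 50 after the transcription start (RefSeq, GRCm38.p6) were found for 18 of the 20 genes. Searched on both strands, the element stood in the windows of 7 of them (Hspa5, Hsp90b1, Calr, Canx, Pdia6, Dnajc3 and Creld2), against 0.137% of all 27025 genes with a window. Of these 7 genes Hsp90b1, Pdia6 and Dnajc3 fell and the other 4 were not called. The windows of Dnajc3 (chr14:118937682-118937981, plus strand, 1 match) and Hsp90b1 (chr10:86705395-86705694, minus strand, 2 matches in opposite orientation) are shown 5′ to 3′ as the examples among called genes, with the matches in capitals. A match is only a run of letters in the sequence.
Dnajc3: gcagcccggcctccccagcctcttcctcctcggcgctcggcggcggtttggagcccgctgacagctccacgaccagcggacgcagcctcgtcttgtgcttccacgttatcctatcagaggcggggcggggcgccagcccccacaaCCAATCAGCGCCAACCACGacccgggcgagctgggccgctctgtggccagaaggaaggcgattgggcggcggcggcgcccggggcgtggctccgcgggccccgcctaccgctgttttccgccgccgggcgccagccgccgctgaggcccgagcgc
Hsp90b1: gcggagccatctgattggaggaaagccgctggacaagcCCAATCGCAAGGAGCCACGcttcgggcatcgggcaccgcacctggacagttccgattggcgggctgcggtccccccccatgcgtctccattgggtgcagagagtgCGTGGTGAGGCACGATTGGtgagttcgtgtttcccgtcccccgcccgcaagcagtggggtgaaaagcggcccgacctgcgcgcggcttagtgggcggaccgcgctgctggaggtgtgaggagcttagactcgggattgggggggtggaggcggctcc

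Of 24 measured extracellular matrix genes 5 fell, none rose and 19 were not called (median -0.18), against 1.46% of all genes that fell. They were the gelatinase gene Mmp2 by 0.48 ± 0.11, the fibrillar collagen genes Col3a1 by 0.45 ± 0.08 and Col5a3 by 0.34 ± 0.07, the basement membrane collagen gene Col4a1 by 0.22 ± 0.05 and the matrix binding protein gene Sparc by 0.21 ± 0.05, with limma adjusted p between 0.00035 and 0.0075. Markers of fibroadipogenic progenitors, the matrix producing cells between fibres, moved with them: 2 of 8 fell, Dpt by 0.30 ± 0.06 (limma adjusted p = 0.00042) and Col3a1, which both lists hold, and their median difference was -0.20. The mean of the 8 genes spanned 8.46 to 9.05 in aged CR and 8.53 to 9.30 in adult control, while Pdgfra, a defining marker of these cells, had no probe set among the genes tested. Adjusted for that mean, which was added as an alternative after the data had been seen, 426 genes were called, 299 higher and 127 lower. Sparc was no longer called, and Mmp2 and Col5a3 were. Muscle stem cell markers differed little: 1 of 19 fell (Chrdl2, a BMP antagonist, by 0.38 ± 0.08, limma adjusted p = 0.0024) and none rose, with a median of -0.06.

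Of 21 measured ribosomal protein genes 5 rose by small amounts, none fell and 16 were not called (median 0.05), against 2.51% of all genes that rose. Rps24 averaged 11.22 in aged CR and 11.06 in adult control (0.16 ± 0.04, limma adjusted p = 0.0035), Rps19 rose by 0.34 ± 0.10, Rpl32 by 0.30 ± 0.09, Rps18 by 0.21 ± 0.06 and Rpl22 by 0.18 ± 0.06. The calls of Rps19, Rpl32 and Rps18 were lost without the ZT20 arrays and with matched array numbers, and that of Rps18 in 25 of 48 omissions of a single array. Among NF-kB targets and inflammatory genes 3 of 14 rose and none fell: the subunit gene Nfkb2 (0.26 ± 0.06, limma adjusted p = 0.0037), the inhibitor gene Nfkbia (0.17 ± 0.04) and the chemokine gene Ccl2 (0.37 ± 0.11). Cd79a, a subunit of the B cell receptor, rose by 0.49 ± 0.08 (limma adjusted p = 9.4e-05) and was the only lymphocyte marker of 5 to be called. Of 8 Schwann cell markers the neurotrophin receptor gene Ngfr (0.49 ± 0.11) and the transcription factor gene Sox10 (0.51 ± 0.13) rose, and the adhesion molecule gene Ncam1, which muscle stem cells also express, fell (-0.16 ± 0.04), although its 2 dimmer probe sets had differences of 0.03 ± 0.04 and 0.02 ± 0.11. The call of Sox10 was lost without the ZT20 arrays.

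The groups named next showed at most 2 calls each, where 2.51% of all genes rose and 1.46% fell. With 3.97% of all genes called, a short list with no call does not stand apart. None of 25 oxidative phosphorylation genes was called (median 0.05), nor of 18 proteasome, 16 cell cycle, 13 glucocorticoid-induced or 9 interferon genes at this threshold in limma. Of 12 glycolysis genes Hk2 fell by 0.30 ± 0.08 and Ldha by 0.17 ± 0.05. Of 15 sterol and fatty acid synthesis genes the feedback regulator Insig1 rose by 0.30 ± 0.09 (limma adjusted p = 0.027) and the regulator Srebf2 by 0.24 ± 0.08, and the call of Srebf2 was lost in 31 of 48 omissions of a single array. In the insulin and mTOR list Rptor was the only call of 15 (0.37 ± 0.11, limma adjusted p = 0.044), lost in 26 of 48.

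**Figure D2:**
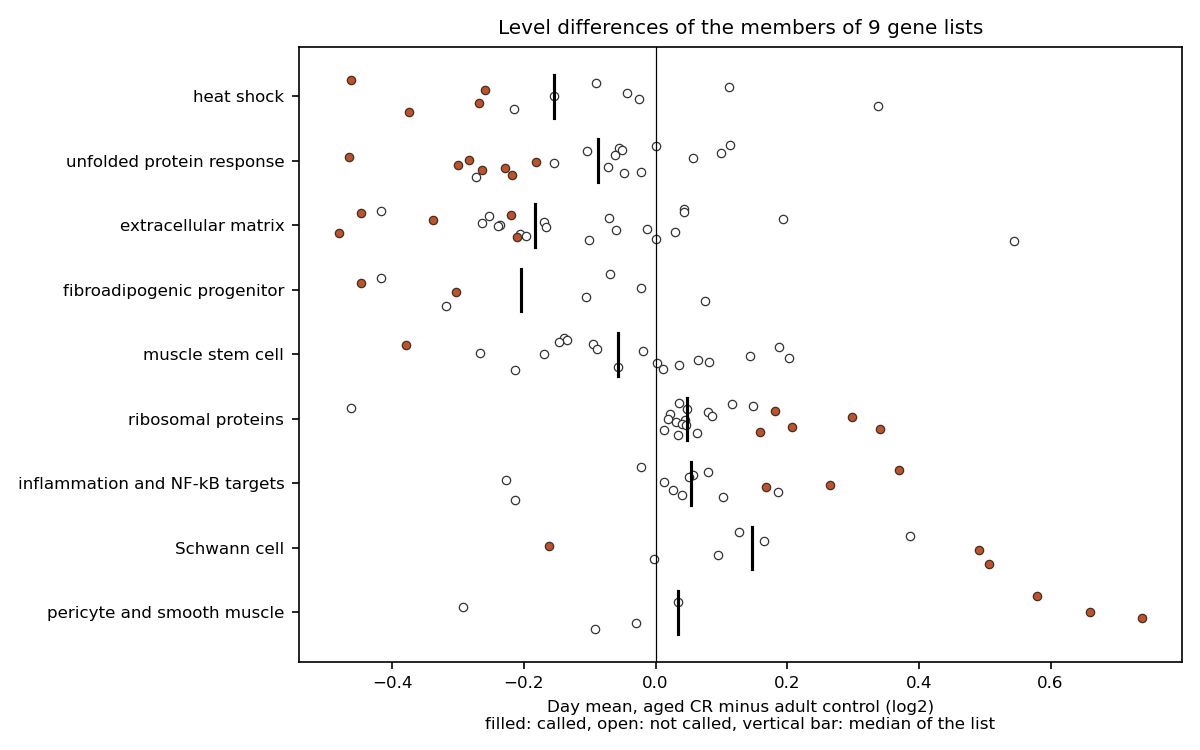
Difference of day means, aged CR minus adult control, on the log2 scale for each measured member of 9 gene lists (1 point per gene, filled where called by limma, with a black bar at the median of the list). Called heat shock, unfolded protein response and matrix genes lie below 0, and called ribosomal, NF-kB and smooth muscle genes lie above it.

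Aged control cells give the distance from adult control cells between mice on the same control diet. That comparison called 50 genes (0.422%), 39 higher and 11 lower, and 11368 of its intervals lay inside -0.5 to 0.5. It shares the adult control arrays with the comparison above, so both are set side by side only. Over the 39 genes higher with age, the median difference from adult control was 0.20 in aged CR and 0.44 in aged control. Over the 11 lower genes it was -0.27 in aged CR and -0.39 in aged control. These genes were chosen for their difference in aged control, so the medians describe them and test nothing.

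Individual genes of this set fell into different positions. Tnc, the matrix protein tenascin C, spanned 4.27 to 6.95 with a median of 5.44 in aged CR and 4.36 to 6.18 with a median of 5.04 in adult control. Its day means were 5.54 in aged CR, 6.23 in aged control and 5.00 in adult control. Aged CR was lower than aged control by 0.69 (limma adjusted p = 0.017) and exceeded adult control by 0.55 ± 0.18 (limma adjusted p = 0.071). Cadm1, a cell adhesion gene, and Olig1, a transcription factor of the oligodendrocyte lineage, had the same order, with differences from adult control of 0.24 and 0.18 in aged CR beside 0.61 and 0.46 in aged control. For Olfml2a and Gal both aged groups lay below adult control: the differences were -0.79 in aged CR and -0.82 in aged control for Olfml2a, and -0.83 in aged CR and -0.65 in aged control for Gal. For Olfml2a aged CR and aged control differed by 0.03 (limma adjusted p = 0.94). Ccn3, a matricellular protein gene, had 0.51 in aged CR (limma adjusted p = 0.047, lost in 23 of 48 omissions of a single array) and 0.83 in aged control. Over all genes, a test in limma of whether the diet effect depended on age called 0 genes (908 genes had an unadjusted p under 0.05).

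**Figure D3:**
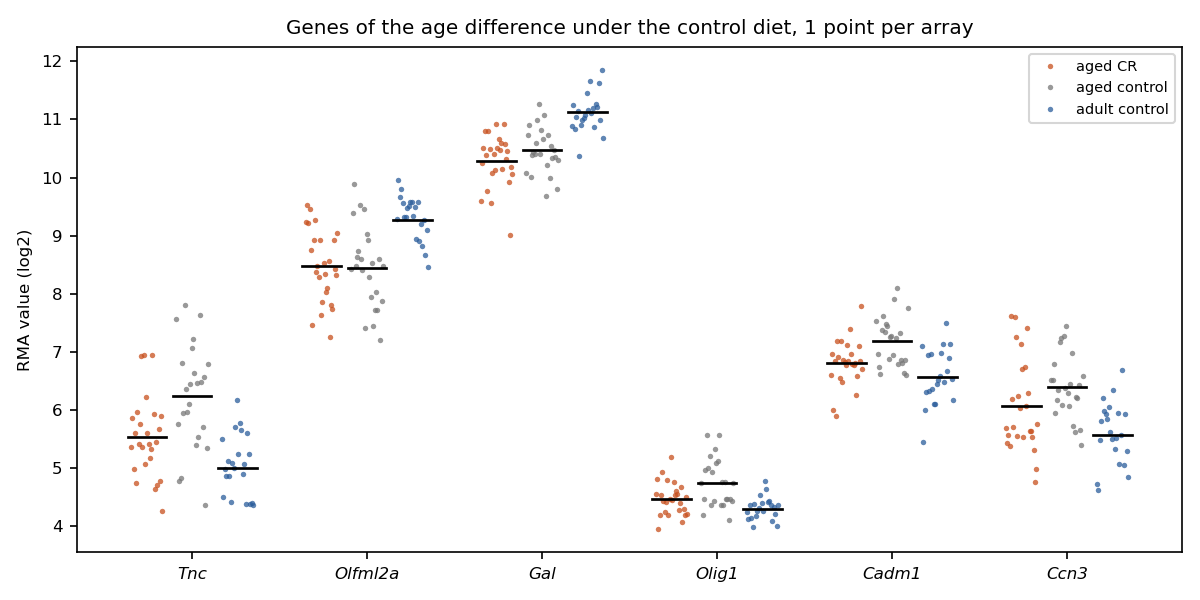
Values of the 6 genes of smallest p for the age difference under the control diet; each point is 1 array on the log2 scale, with 26 aged CR, 24 aged control and 22 adult control arrays from left to right for each gene, and bars are fitted day means. Aged CR lies between the other groups for Tnc, Olig1, Cadm1 and Ccn3 and beside aged control for Olfml2a and Gal.

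Rhythms were tested in each group on its own. By limma's F test of the cosine and sine terms, 1951 genes (16.5%) were rhythmic in aged CR and 1256 (10.6%) in adult control. The groups differ in array number, and with 21 arrays in each, matched by time, 1270 genes were rhythmic in aged CR and 1163 in adult control. Both tests were passed by 461 genes (3.89%), which is 23.6% of the aged CR list and 36.7% of the adult control list. A gene past the threshold in 1 group alone is not shown to differ. The difference in rhythm itself was called for 21 genes (0.177%; 1601 had an unadjusted p under 0.05), and a rank-based version of the test called none (1406 at an unadjusted p under 0.05, smallest adjusted p = 0.055). Of the 21 genes 14 were rhythmic in both groups, and in all 14 the peak came earlier in aged CR. Peak shifts were counted the shorter way around the 24 h day, so the sign of the widest ones depends on that rule.

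Clock genes were among those that shifted. Of 20 listed, 19 were measured. Over all genes 16.5% were rhythmic in aged CR, 10.6% in adult control and 3.89% in both. Of the 19 clock genes 12 were rhythmic in each group and 11 in both. Among these 11 the peak came earlier in aged CR for 9 and later for 2. The median shift was -2.01 h, against -0.74 h for the other 450 genes rhythmic in both, and 7 of the 11 intervals, each taken on its own, lay wholly below 0. The rhythm difference passed for Arntl, Dbp and Nr1d2, against 0.177% of all genes. For 18 of 19 clock genes the interval of the level difference lay inside -0.5 to 0.5, a share like the 94.9% of all genes. Limma called 2 of the 19 for level, both lower in aged CR, against 1.46% of all genes that fell. They were Arntl and the clock kinase Csnk1d (-0.13 ± 0.04, limma adjusted p = 0.032).

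Arntl, the activator, showed the change plainly. At ZT4 its values were 4.96, 5.18, 5.52 and 5.79 in aged CR, against 6.64, 6.74, 7.03, 7.09 and 7.44 in adult control, with no overlap. At ZT8 they were 3.86, 4.51, 5.11 and 5.54 in aged CR, against 5.71, 6.07, 6.10 and 6.13 in adult control, again with no overlap. At ZT16 the order turned, with 6.01, 7.08, 7.50 and 7.72 in aged CR against 5.92, 6.52, 6.67 and 6.77 in adult control, and the ranges overlapped. The fitted peak lay at 20.05 h ± 0.33 in aged CR and 23.26 h ± 0.54 in adult control (SE), a shift of -3.21 h ± 0.63 (rhythm difference, limma adjusted p = 0.0056). Its amplitude, the distance from day mean to peak, was 1.55 ± 0.14 in aged CR and 1.10 ± 0.16 in adult control, and the interval of the difference ran from 0.03 to 0.86. Its day mean was lower by 0.51 ± 0.15 (limma adjusted p = 0.031, lost in 3 of 48 omissions of a single array, each an adult control array of ZT16, with adjusted p of 0.054 to 0.065). That level call was also lost without the ZT20 arrays and with matched array numbers. Its partner Npas2 peaked at 21.62 h ± 0.47 in aged CR and 22.87 h ± 0.42 in adult control, and Clock was rhythmic in aged CR (limma adjusted p = 0.022) and not called in adult control (limma adjusted p = 0.93), with a rhythm difference that did not pass (limma adjusted p = 0.52).

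Dbp and Nr1d2, targets of the activators, moved in the same direction. For Dbp, an output factor, values at ZT4 were 7.51, 7.87, 7.88 and 7.92 in aged CR, against 6.52, 6.70, 6.79, 6.81 and 6.98 in adult control. At ZT16 they were 6.03, 6.08, 6.16 and 6.44 in aged CR, against 6.61, 6.77, 6.98 and 7.26 in adult control. Aged CR was thus wholly above adult control at ZT4 and wholly below it at ZT16, while the groups overlapped at ZT0 and ZT12. Dbp peaked at 6.92 h ± 0.42 in aged CR and 10.14 h ± 0.34 in adult control, a shift of -3.22 h ± 0.54 (limma adjusted p = 0.00079). Nr1d2, which represses Arntl, peaked at 6.55 h ± 0.32 in aged CR and 8.83 h ± 0.31 in adult control, a shift of -2.28 h ± 0.45 (limma adjusted p = 0.018). Its mean at ZT16 was 7.69 ± 0.10 in aged CR and 8.22 ± 0.22 in adult control (SD, 4 arrays each), and the ranges did not overlap.

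The remaining clock genes did not pass the rhythm difference. Per3 peaked at 10.10 h ± 0.44 in aged CR and 12.11 h ± 0.54 in adult control (limma adjusted p = 0.26). The shifts were -1.82 h ± 0.79 for the output factor Tef, -2.29 h ± 1.05 for the repressor Nfil3, -3.72 h ± 1.58 for the repressor Ciart and -1.36 h ± 0.79 for Per1. Per2, a repressor that also answers to body temperature and glucocorticoids, peaked at 11.58 h ± 0.45 in aged CR and 11.34 h ± 0.66 in adult control, a shift of 0.24 h with an interval from -1.35 to 1.84. Hlf moved by 0.12 h with an interval from -2.18 to 2.43. The sign of both shifts turned under some alternatives, to -0.47 h for Per2 and -0.71 h for Hlf at the lowest. For the same 11 genes the median shift of aged control from adult control was 0.14 h. In aged control Arntl peaked at 23.51 h and Dbp at 10.30 h.

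**Figure D4:**
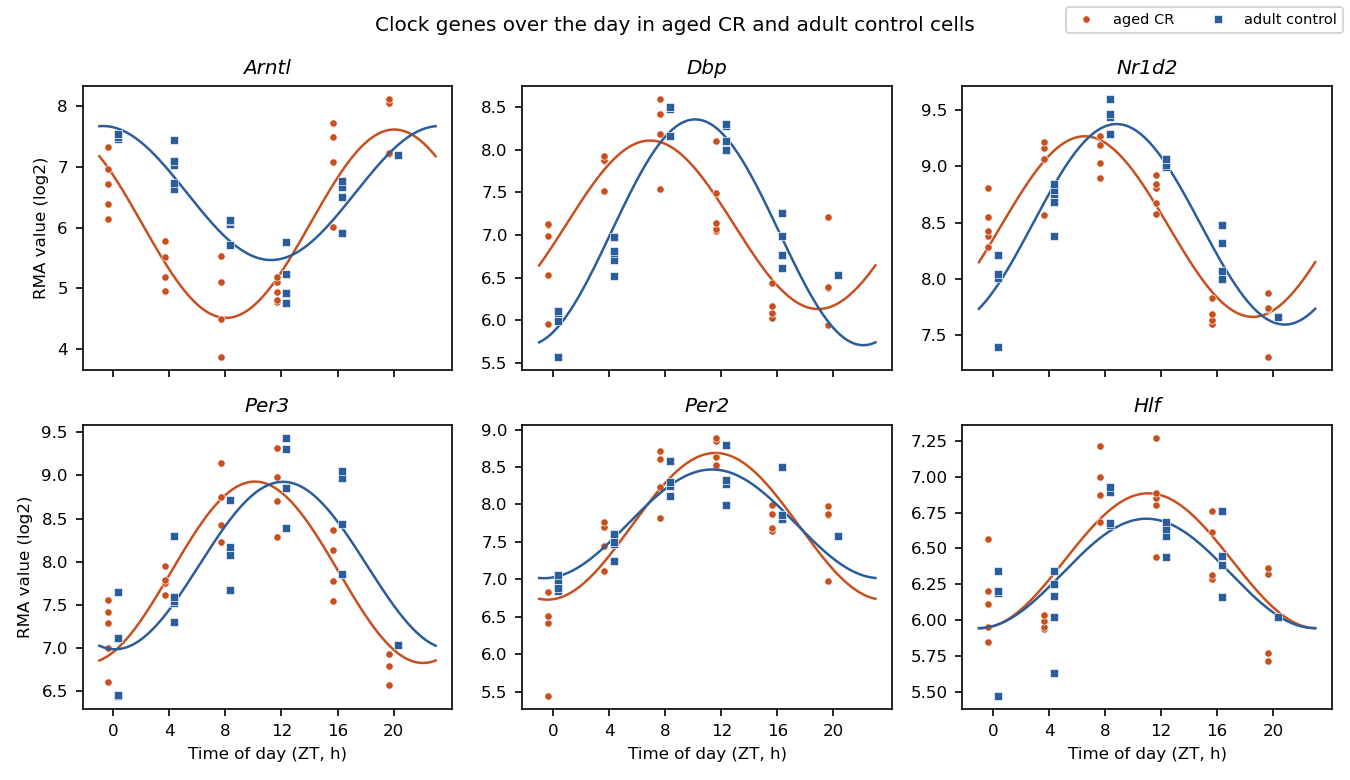
Values of 6 clock genes by time of day (ZT, h) on the log2 scale; each point is 1 array, aged CR (circles) drawn left of adult control (squares) at each time, and lines are the fitted curves. The curves of Arntl, Dbp, Nr1d2 and Per3 lie earlier in aged CR by 2.01 to 3.22 h, and those of Per2 and Hlf coincide within 0.24 h.

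Promoter windows of the clock genes were searched for 3 elements through which the loop is known to run. They were found for 16 of the 19 measured genes and searched on both strands. The E-box CACGTG, bound by ARNTL and its partners, stood in 4 (Per1, Tef, Bhlhe41 and Ciart), against 8.09% of all genes. The D-box TTANGTAA, bound by DBP, TEF, HLF and NFIL3, stood in Per3 alone (2.72% of all genes), and the ROR element core TAGGTCA, bound by ROR and NR1D factors, in Arntl and Nfil3 (2.97%). The windows are given 5′ to 3′ for 1 gene per element whose peak came earlier, matches in capitals: Ciart with 3 E-boxes (chr3:95882179-95882478, minus strand), Per3 with 2 D-boxes (chr4:151044616-151044915, minus strand) and Arntl with 1 ROR element core (chr7:113207261-113207560, plus strand). A match describes the letters and shows no binding.
Ciart: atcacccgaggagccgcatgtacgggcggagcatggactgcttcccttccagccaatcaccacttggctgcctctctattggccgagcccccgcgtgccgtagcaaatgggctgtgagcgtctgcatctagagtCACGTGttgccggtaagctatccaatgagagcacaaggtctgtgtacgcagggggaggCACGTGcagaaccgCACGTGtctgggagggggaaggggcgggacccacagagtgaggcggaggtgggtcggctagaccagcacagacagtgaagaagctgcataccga
Per3: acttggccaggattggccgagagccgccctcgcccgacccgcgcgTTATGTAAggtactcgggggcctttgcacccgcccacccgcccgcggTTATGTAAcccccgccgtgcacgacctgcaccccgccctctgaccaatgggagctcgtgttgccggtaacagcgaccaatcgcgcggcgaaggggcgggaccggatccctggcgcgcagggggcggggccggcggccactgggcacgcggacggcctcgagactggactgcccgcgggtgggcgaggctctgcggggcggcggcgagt
Arntl: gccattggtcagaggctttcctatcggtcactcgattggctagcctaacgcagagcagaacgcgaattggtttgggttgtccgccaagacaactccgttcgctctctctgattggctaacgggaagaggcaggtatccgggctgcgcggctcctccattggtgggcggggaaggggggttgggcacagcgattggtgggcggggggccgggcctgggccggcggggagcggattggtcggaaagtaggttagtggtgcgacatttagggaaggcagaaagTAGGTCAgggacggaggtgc

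Outside the clock list, 11 more genes with a called rhythm difference were rhythmic in both groups. Sphk2, a sphingosine kinase gene, peaked at 8.14 h ± 0.29 in aged CR and 10.11 h ± 0.24 in adult control (limma adjusted p = 0.00099), with an amplitude of 1.41 ± 0.11 in aged CR and 1.85 ± 0.13 in adult control. Its annotated span overlaps that of Dbp by 741 bases, so its signal may not be its own. Col5a1, a collagen gene, peaked at 21.13 h ± 0.47 in aged CR and 1.13 h ± 0.57 in adult control (limma adjusted p = 0.0093). Its values at ZT4 spanned 8.79 to 9.13 in aged CR and 9.23 to 9.83 in adult control, without overlap. Dhrs3, which turns retinaldehyde back into retinol, peaked at 19.91 h ± 0.66 in aged CR and 0.50 h ± 0.62 in adult control (limma adjusted p = 0.016). At ZT16 it spanned 7.64 to 7.72 in aged CR and 6.18 to 6.88 in adult control.

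The meiotic gene Rec114 shifted by -6.46 h ± 1.17, the translocation factor Sec63 by -6.23 h ± 1.24 and the proprotein convertase gene Pcsk5 by -6.46 h ± 1.27. Clmn, Tcirg1, Creb3l1, Dpy19l3 and Tnf shifted by -5.06, -5.35, -5.29, -8.10 and -9.31 h. The calls of these 5 were each lost in 8 to 26 of 48 omissions of a single array. Tnf, the inflammatory cytokine, had low amplitudes of 0.13 in aged CR and 0.14 in adult control, so its peak times rest on small changes. Shifts were counted the shorter way around the day, so the sign of those as wide as -8.10 and -9.31 h depends on that rule.

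**Figure D5:**
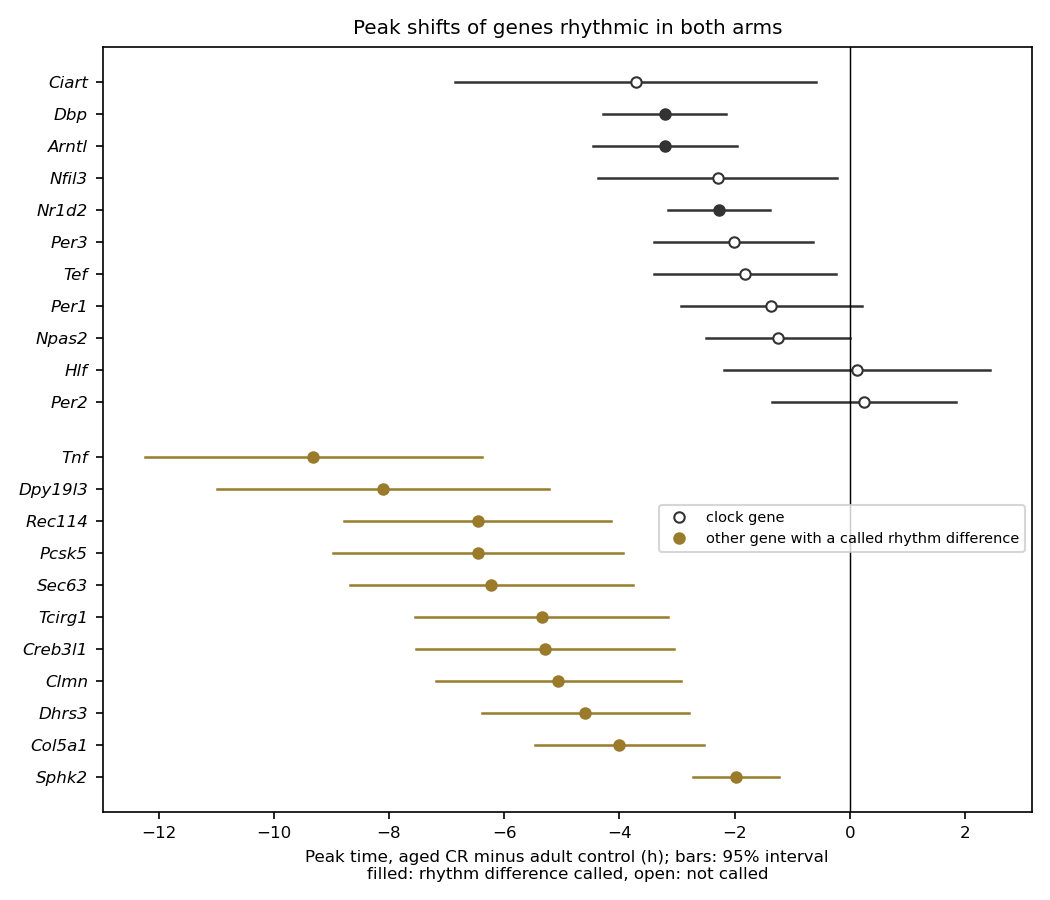
Peak time in aged CR minus adult control (h) with its 95% interval for the 11 clock genes rhythmic in both groups and the 11 other genes with a called rhythm difference that were rhythmic in both; filled points mark called rhythm differences. For the clock genes 9 points lie below 0, and Hlf and Per2 lie at 0.12 and 0.24 h.

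Cpt1a, the gate of fatty acid entry into mitochondria, was rhythmic in aged CR and not called in adult control. At ZT16 its values were 7.57, 7.64, 7.71 and 8.40 in aged CR, against 8.92, 9.04, 9.06 and 9.20 in adult control, with no overlap, and its difference there was -1.23 ± 0.21 (limma adjusted p = 0.00064). Its fitted peak lay at 4.18 h ± 0.62 in aged CR and 21.52 h ± 1.22 in adult control, and its rhythm difference passed (limma adjusted p = 0.036, lost in 6 of 48 omissions of a single array, 3 of them aged CR arrays of ZT16). The phosphatase gene Phospho2 and the laminin gene Lama1 were also called in aged CR alone, and Invs, Amotl1, Gid8 and Hbb-y in adult control alone. Of 48 omissions of a single array, the call was lost in 0 for Phospho2, 26 for Lama1, 4 for Invs, 10 for Amotl1, 17 for Gid8 and 25 for Hbb-y.

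Lists differed in how many members cycled, although among list members only Col5a1, Cpt1a and the 3 clock genes Arntl, Dbp and Nr1d2 passed the rhythm difference. Among the 15 genes that make sterols and fatty acids, 9 were rhythmic in aged CR and 3 in adult control (backgrounds of 16.5% and 10.6%). In aged CR the fatty acid synthase Fasn peaked at 19.99 h ± 0.76, Acly at 19.21 h ± 0.83, Acaca at 19.15 h ± 1.10 and the desaturase Scd1 at 19.05 h ± 0.52. Of 21 ribosomal protein genes 7 were rhythmic in aged CR and none in adult control, and their aged CR peaks lay between 6.73 and 8.33 h. Of 15 insulin and mTOR genes 6 were rhythmic in aged CR and none in adult control, with peaks from 3.87 h for Deptor to 23.18 h for Rptor. Of 13 glucocorticoid-induced genes 8 were rhythmic in aged CR and 5 in adult control, and these 5 were rhythmic in both.

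Among the 461 genes rhythmic in both groups, 14 had a called rhythm difference. The fitted shift of the 461 had a median of -0.78 h with quartiles of -2.35 and 0.80 h. In aged CR 283 peaked earlier and 178 later, and 58.6% lay within 2 h. This spread includes the error of each fitted peak. For the same genes the median ratio of amplitudes, aged CR over adult control, was 0.93, with quartiles of 0.80 and 1.09. Among the widest amplitudes outside the clock were Zbtb16, a glucocorticoid-induced transcription factor gene, at 0.82 ± 0.25 in aged CR and 1.23 ± 0.31 in adult control, and Crybg1 at 1.01 ± 0.14 and 0.95 ± 0.15. Over all rhythmic genes, peaks between 18 and 24 h made up 33.1% of the aged CR list and 24.6% of the adult control list.

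Most calls at a single time came at ZT8 and ZT0. Tests at single times called 214 genes at ZT0 (1.81%), 48 at ZT4 (0.405%), 484 at ZT8 (4.08%), 20 at ZT12 (0.169%), 34 at ZT16 (0.287%) and 3 at ZT20 (0.0253%), where adult control had 1 array that was assumed to vary like the others. The median absolute difference over all genes was 0.16 at ZT0, 0.18 at ZT8 and 0.21 at ZT20, and the median SE at ZT20 was 0.29, against 0.17 at ZT0. At ZT8 181 genes were higher and 303 lower in aged CR, and at ZT0 105 were higher and 109 lower. The ZT8 count was 226 to 405 when any array of that time was left out, and the ZT0 count 98 to 317.

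At ZT8 markers of other cells also differed. The mean of 6 tenocyte markers spanned 5.13 to 6.05 in aged CR and 6.13 to 7.44 in adult control, and that of 8 fibroadipogenic progenitor markers 8.65 to 8.78 and 9.11 to 9.15. The mean of 24 matrix genes spanned 7.97 to 8.37 and 8.50 to 8.70, and that of the 19 muscle stem cell markers 9.47 to 9.55 and 9.73 to 9.85. None of these 4 pairs overlapped at ZT8. This was not particular to them, as many other lists did not overlap then either. The unfolded protein response mean was lower in aged CR (7.532 to 7.679 against 7.764 to 7.911). So were the antioxidant, autophagy, Notch and muscle stem cell ageing means. The neutrophil mean was higher in aged CR (5.211 to 5.359 against 4.998 to 5.184). Aged CR was lower for glycolysis (8.822 to 8.945 against 9.034 to 9.218) and interferon genes (6.908 to 7.255 against 7.29 to 7.479). It was higher for glucocorticoid-induced (9.867 to 9.955 against 9.603 to 9.708) and immediate early genes (10.53 to 10.59 against 10.34 to 10.44). The smooth muscle, endothelial and ribosomal means overlapped. The mean of 3 macrophage markers was higher in aged CR, at 5.94 to 6.12, than in adult control, at 5.67 to 5.82. Over all 11853 genes, 303 were called lower and 181 higher at ZT8 (4.08% called). Of the first 4 lists, 5 of 24 matrix genes, 3 of 8 progenitor, 2 of 6 tenocyte and 3 of 19 stem cell markers were lower. No member of these 4 lists was higher, and their part in the other ZT8 calls was not tested.

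The genes named next led the tests at single times and were chosen after their values were seen. Dio2 at ZT8 had 4.93, 5.04, 5.33 and 5.49 in aged CR, against 6.26, 6.56, 6.76 and 7.04 in adult control (-1.46 ± 0.21, limma adjusted p = 9.7e-06), and at ZT16 it differed by 0.01 ± 0.21. Uck2, a uridine kinase gene, had 8.67 to 9.33 in aged CR and 9.99 to 10.53 in adult control at ZT8. Hspb7, a small heat shock gene of muscle, had 6.51 to 8.09 in aged CR and 4.83 to 5.48 in adult control at ZT8, a 3.82-fold higher level (limma adjusted p = 0.00057). At ZT0 the adhesion molecule gene Alcam had 5.63, 5.68, 5.77, 5.96 and 6.33 in aged CR, against 6.67, 7.0, 7.28 and 7.31 in adult control (-1.19 ± 0.19, limma adjusted p = 7.3e-05).

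Cirbp, an RNA binding protein whose transcript rises in the cold, had 6.76, 6.94, 6.97, 7.20 and 7.44 in aged CR at ZT0, against 5.91, 5.99, 6.13 and 6.20 in adult control. That is a 2.01-fold higher level (limma adjusted p = 0.0028) with no overlap, while its day mean differed by 0.24 ± 0.10 and was not called. Igf2, a growth factor gene, had 10.30, 10.50, 10.65, 10.67 and 10.77 in aged CR at ZT0, against 9.67, 9.77, 9.89 and 9.91 in adult control. It was higher over the day too, by 0.43 ± 0.06 (limma adjusted p = 3.4e-07). Cyp26a1, which breaks down retinoic acid, had 7.90, 7.91, 7.94 and 8.11 in aged CR at ZT16, against 5.02, 5.33, 5.75 and 6.37 in adult control, a 5.10-fold higher level there (limma adjusted p = 1.5e-05). Over the day its difference was 0.51 ± 0.18 (limma adjusted p = 0.086). Of these 7 genes Dio2, Hspb7, Igf2 and Uck2 passed the test of the day mean, and Alcam, Cirbp and Cyp26a1 did not.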

How the data were processed

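The authors deposited RMA values, per the submitters' processing notes, on a scale read here as log2 from their range; background correction settings and scan batches are not given in the sources used here. Of 45141 probe sets 28898 carry 1 gene symbol, 551 several and 15692 none, from the platform annotation; those with 1 symbol and a mean at or above the 40th percentile (4.504) were kept, with the brightest for each gene, which left 11853 genes. One model of the arrays of all groups was made with limma 3.58.1 (R 4.3.3), with a mean, cosine and sine of 24 h for each group, and the groups compared were contrasts of that fit. Level is the contrast of day means, and rhythm differences are F tests over the cosine and sine. P-values were adjusted by Benjamini-Hochberg over all genes at 5%, and intervals are 95%. Single times were compared with time as 6 levels. The number of arrays limits the precision. The titles call arrays biological replicates, the design text gives 4 mice per time and diet group, and p-values measure the spread between arrays. List scores are means of log2 values over a list's measured genes.

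Named genes are all clock genes, the 8 widest called level differences each way with 1 sign at 5 or more times, the 8 smallest p for rhythm difference, the 8 widest shared amplitudes, the 5 widest amplitudes among called genes rhythmic in 1 group, up to 4 called members of each list, the 6 smallest p for age and the brightest marker of each cell type. Other called rhythm genes, further list members and genes of single times were chosen after their values were seen. The comparison, members and gene lists were chosen with earlier results of these data known. Alternatives covered the filter, the probe set rule, the arrays and times used, weights, normalization, covariates and replicate blocks. Scripts were tested on simulated data.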

Additional observations from a re-analysis of the deposited data

Results flagged for a closer look

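Cell type scores were examined in each group and time with 4 to 10 arrays for a single array far from the others, by Dixon's test, in 143 combinations, of which 5 stood out; chance alone flags about 1 in 20. In aged CR at ZT8, replicate 2 had the highest fibroadipogenic progenitor score, 8.784 against 8.646 to 8.659 in the other arrays, and the highest erythroid score, 6.466 against 5.645 to 5.661. In aged CR at ZT20, replicate 1 had a tenocyte score of 6.919 against 5.411 to 5.587. In aged CR at ZT12, replicate 5 had a macrophage score of 6.202 against 6.054 to 6.081. In aged CR at ZT0, replicate 3 had a neutrophil score of 4.906 against 5.098 to 5.147. Without ZT8 replicate 2 of aged CR, 281 genes were called at ZT8, and without ZT0 replicate 3 of aged CR, 98 were called at ZT0.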

How the results depend on the processing

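Of the counts of calls, the level difference (470 genes) became 312 without the ZT20 arrays, 307 with matched array numbers and 242 with a fixed replicate block, against 527 with a random one. Whether replicate numbers pair the arrays was not settled. Of 20 pairs of equal number (median correlation 0.04) 6 correlated above 0.1, and 8 matched their own number best. At ZT16 all 4 did both. Of 60 named level results, 26 lost their call with the fixed block, 18 without the ZT20 arrays, 15 with matched numbers and 12 with the smooth muscle covariate; Arntl, Csnk1d, Ccl2 and Ldha were among those lost without ZT20 and with matched numbers, and Insig1 and Hk2 among those lost without ZT20. The rhythm difference (21) became 229 with time as 6 levels, 46 with the first residual component and 0 in the rank-based test. Rhythmic genes in aged CR numbered 1270 with matched arrays; those in adult control 799 with the Schwann cell covariate and 688 by ranks, and those in both 287 with that covariate. Equivalent genes numbered 6783 at a bound of 0.25. The age difference (50) became 30 without a filter, 30 without ZT20, 33 with matched arrays, 14 with the Schwann cell and 16 with the smooth muscle covariate. Without a filter ZT0 had 363 calls and ZT20 had 44; ZT20 had 5 with the 48 arrays alone and 10 after quantile normalization.

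Leaving out 1 array gave 361 to 510 level calls, 11 to 33 rhythm differences, 1747 to 1978 rhythmic genes in aged CR, 962 to 1297 in adult control, 334 to 471 in both, 11169 to 11255 equivalent genes and 28 to 62 age calls. At single times the ranges were 98 to 317 (ZT0), 11 to 59 (ZT4), 226 to 405 (ZT8), 8 to 17 (ZT12), 9 to 23 (ZT16) and 1 to 9 (ZT20); nearly every omission at ZT12 and ZT16 moved the count by over 1.5 times (7 of 9 and 7 of 8). So did leaving out, at ZT0, aged CR replicate 3 (98) or adult control replicate 2 (129) or 3 (107), at ZT4, aged CR replicate 1 (11) or 4 (16) or adult control replicate 1 (24), 4 (20) or 5 (17), at ZT8, aged CR replicate 1, 2 or 4 (281 to 297) or adult control replicate 2, 3 or 4 (226 to 267), and at ZT20, aged CR replicate 1 (1), 2 (6) or 4 (9). Rhythm differences numbered 12 without aged CR ZT16 replicate 2 or 4, 11 without adult control ZT16 replicate 1, ZT20 replicate 1 or ZT4 replicate 5, and 33 without adult control ZT0 replicate 4. The age count was 28 to 32 without adult control ZT12 replicate 3, ZT16 replicate 4, ZT0 replicate 2, ZT8 replicate 4 or ZT0 replicate 3. No called result reversed under these alternatives; the peak shifts of Per2 (0.24 h) and Hlf (0.12 h), not called, ran to -0.47 and -0.71 h. The causes were not tested. ZT20 rests on 1 adult control array, and without it that time has no value.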

Other observations

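Single members of further lists were called for level by limma. In aged CR Acaa2, a thiolase of fatty acid oxidation, was higher by 0.31 ± 0.07 (limma adjusted p = 0.0061). The Notch target Nrarp was higher by 0.35 ± 0.09 and the immediate early gene Junb by 0.23 ± 0.07. Rb1, a cell cycle regulator counted here in the myogenic differentiation list, was higher by 0.33 ± 0.09. Its probe set was dim, with a mean of 4.953 beside the filter at 4.504. Srxn1, which repairs oxidised peroxiredoxins, fell by 0.42 ± 0.11 (limma adjusted p = 0.0086), the receptor gene Tgfbr1 by 0.27 ± 0.07, the AMPK subunit gene Prkab2 by 0.26 ± 0.07 and the pseudokinase gene Trib1 by 0.22 ± 0.07. Each was the only call in its list, and the call of Trib1 was lost in 12 of 48 omissions of a single array.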
